A study of Mus musculus with 6 samples.

Results

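The Toll-like receptors and the CD180 complex were followed here as 10 genes: the receptor genes Tlr1, Tlr2, Tlr3, Tlr4, Tlr6, Tlr7 and Tlr9, the trafficking chaperone gene Unc93b1, and Cd180 with Ly86, which encodes its partner protein MD-1. Each was found in the deposited table by matching its Ensembl identifier to its symbol in GENCODE M21, so that 10 of the 14864 genes in the table were used and none was missing. The table holds 6 libraries of RNA from marginal zone B cells, a subset of splenic B cells that screens the blood, sorted by flow cytometry from C57BL/6 mice aged 8 weeks. Of these, 3 libraries carry the genotype label WT and 3 the label CK2[alpha]-cKO, abbreviated cKO below, a conditional knockout of the catalytic α subunit of the protein kinase CK2. The Cre driver, the deleted exons, the sort gates and the number of animals behind a library are not stated in the labels, and the p-values therefore measure only how these libraries vary, in part perhaps for technical reasons.

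Between 18778776 and 23503756 reads per library were recovered from the deposited values, and every one of the 10 genes passed the filter on low values. Values of single libraries are given throughout in the order of replicates 1, 2 and 3, in normalised reads, the unit of the deposited table. The targeted gene, Csnk2a1, had 4069, 3861 and 3939 normalised reads in the WT libraries, and the cKO libraries had 4124, 3951 and 4060. It was thus not lower in the libraries labelled cKO (log2 difference 0.03, limma adjusted p = 0.734), and a count over the whole gene does not resolve a deleted exon, so directions below are those of the libraries as labelled. Of the markers of the labelled cell type, all 7 B cell genes and all 12 marginal zone B cell genes looked for were among the genes tested. That requires only a mean of at least 10 and does not tell cell types apart, since all 17 macrophage and monocyte genes met it too. Cr2, the complement receptor abundant on these cells, was at 65812 ± 2121 normalised reads in WT (SD, n = 3).

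Toll-like receptors recognise conserved microbial molecules and signal through adaptor proteins to NF-κB and to interferon regulatory factors. Tlr1, Tlr2, Tlr4 and Tlr6 act at the cell surface, where Tlr2 pairs with Tlr1 or Tlr6 to bind lipopeptides and Tlr4 binds lipopolysaccharide with its partner MD-2. Tlr3, Tlr7 and Tlr9 sense double-stranded RNA, single-stranded RNA and unmethylated CpG DNA inside endosomes, and reach them with the help of Unc93b1. CD180 resembles the extracellular part of Tlr4 but lacks the signalling domain, is held at the surface by MD-1, and modulates B cell responses to lipopolysaccharide. Marginal zone B cells are known for rapid antibody responses to blood-borne microbes in which these receptors take part.

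Of the 10 genes, Tlr3 and Tlr7 rose in the cKO libraries, Cd180 fell, and 7 did not pass the test (limma, Benjamini-Hochberg adjusted p under 0.05 over all 14855 genes tested). Over all those genes 10.1% were called, 5.08% higher and 4.97% lower in cKO. Log2 differences are those of log2(value + 1), cKO less WT, a scale that makes changes of scarce genes look smaller, and ± after one is its standard error. The median log2 difference of the 10 genes was 0.10, beside -0.000864 over all genes tested, and 8 of the 10 lay above 0. For 6 of the 10 no WT value lay within the cKO range or the reverse, with 5 higher in cKO and 1 lower, where 31.6% of all genes tested showed no overlap (15.9% higher and 15.6% lower). An unadjusted p under 0.05 was reached by 4 of the 10, against 26.8% of all genes tested.

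**Figure D1:**
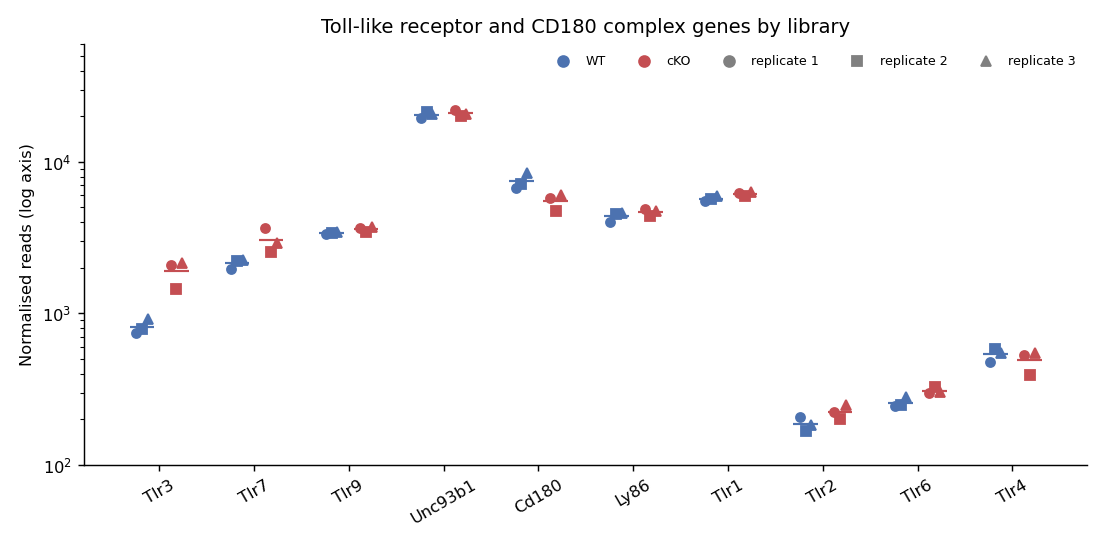
Normalised reads of the 10 genes in each library on a log axis, WT in blue and cKO in red, with a marker shape for each replicate number and a line at the mean of 3 libraries. The Tlr3, Tlr7 and Cd180 groups are separate, while Unc93b1, Ly86, Tlr2 and Tlr4 overlap between genotypes.

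Levels differed far more between the genes than between the genotypes. Per kilobase of annotated exon, Unc93b1 was the most abundant in WT at 6748 ± 297 normalised reads (SD, n = 3), followed by Tlr1 at 1707 ± 62.4 and Cd180 at 1647 ± 196, which overlapped each other. Ly86 came next at 1208 ± 94.8, then Tlr9 at 978 ± 14.7 and Tlr7 at 525 ± 38.2, each apart from its neighbours in every WT library. Tlr3 stood at 157 ± 17.8 and Tlr4 at 96.4 ± 9.79 per kilobase. Tlr6 at 69.1 ± 5.20 and Tlr2 at 61.4 ± 6.68 were the lowest and overlapped. The order was nearly the same in cKO, except that Ly86 at 1290 ± 71.1 per kilobase then stood above Cd180 at 1223 ± 153, with overlap, and Cd180 also overlapped Tlr9 at 1036 ± 34.8. The lengths are those of all annotated exons of a gene, and which isoforms these cells use was not measured.

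Among the endosomal receptors, Tlr3, the sensor of double-stranded RNA, had the largest difference. The WT libraries had 741, 790 and 921 normalised reads, whereas the cKO libraries had 2094, 1443 and 2137. The lowest cKO library, replicate 2, was still well above the highest WT library. The log2 difference was 1.19 ± 0.14 (limma adjusted p = 0.000748), a ratio of 2.29 with a 95% interval of 1.86 to 2.81. By size of increase it ranked 132 among the 14855 genes tested. Tlr3 passed the test in each of 17 alternative fits, with log2 differences between 0.76 and 1.38. In GENCODE M21, 381 of the 5207 exon bases of Tlr3 overlap the antisense gene Gm45542, whose reads cannot be told apart from those of Tlr3 without a stated strand setting.

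Promoter sequence from RefSeq (GRCm38.p6) was matched by symbol for 7 of the 10 genes, and not for Tlr4, Tlr7 and Unc93b1. The 250 bases before each listed start, 10 windows in all because some genes have more than 1 start, were searched on both strands for 8 motifs: AANNGAAA, the core of sites bound by interferon regulatory factors; the fuller interferon response element, a tandem form that contains it; TTCNNNGAA, a STAT site; the NF-κB consensus; TGANTCA, an AP-1 site; ATGCAAAT, the octamer; GAGGAA, an ETS site of the PU.1 type; and TGGGAA, the core of sites bound by RBPJ, the nuclear partner of Notch. The stretches printed are those of a riser (Tlr3), a gene of the same compartment that was not called (Tlr9) and the gene that fell (Cd180), with every match in capitals, for the first listed start of each. The Tlr3 stretch is limited to the 72 bases before the RefSeq start that lie in no annotated exon of the gene (chr8:45410381-45410452, minus strand). The other 178 bases of its window lie farther upstream, in annotated Tlr3 exon sequence. By that annotation the printed Tlr3 stretch follows an exon of the gene and does not lie upstream of the whole gene. The others are the whole windows (chr9:106222348-106222597 and chr13:102693297-102693546, both plus strand), with 0 annotated exon bases of their genes.
Tlr3: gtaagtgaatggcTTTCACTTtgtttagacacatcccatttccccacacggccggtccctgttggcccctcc
Tlr9: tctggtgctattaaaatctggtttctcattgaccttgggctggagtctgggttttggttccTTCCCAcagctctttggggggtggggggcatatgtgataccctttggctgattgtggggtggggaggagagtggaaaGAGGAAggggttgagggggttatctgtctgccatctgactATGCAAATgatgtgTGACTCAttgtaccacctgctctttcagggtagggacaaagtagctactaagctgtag
Cd180: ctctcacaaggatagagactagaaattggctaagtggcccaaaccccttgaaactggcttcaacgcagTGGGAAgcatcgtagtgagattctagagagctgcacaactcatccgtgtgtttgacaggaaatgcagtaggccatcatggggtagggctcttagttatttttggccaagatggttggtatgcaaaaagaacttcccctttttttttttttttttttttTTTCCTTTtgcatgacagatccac

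In the Tlr3 stretch the capitals are a match to AANNGAAA on the reverse strand, 59 to 52 bases before the start. The annotated exon part of the Tlr3 window, not printed, holds in addition a match to the NF-κB consensus 211 to 202 bases before the start, a motif found in windows of 2 of the 7 genes (Tlr2 and Tlr3) and in 3.9% of all windows. The Tlr9 window holds, from left to right, matches to TGGGAA on the reverse strand, GAGGAA, the octamer and the AP-1 letters, and the Cd180 window a match to TGGGAA and one to AANNGAAA on the reverse strand. These matches are descriptions of letters, and most of the motifs are common: of 32851 RefSeq windows of the same length, AANNGAAA was found in 21.3%, TGGGAA in 21.6%, GAGGAA in 23.3%, TGANTCA in 6.75% and the octamer in 1.6%. AANNGAAA was found in windows of 5 of the 7 genes (Tlr1, Tlr2, Tlr3, Tlr6 and Cd180), which include one that rose, one that fell and 3 that were not called. The fuller interferon response element was found, among the 7, only for Tlr6, and in 2.98% of all windows. The counts among the 7 are per gene, and Tlr1, Tlr6 and Cd180 each have more than 1 window. The shares of all windows are per window, so the counts and shares are not like for like.

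Tlr7, which senses single-stranded RNA, rose to a lesser extent. The WT libraries had 1964, 2206 and 2256 normalised reads, whereas the cKO libraries had 3658, 2528 and 2910. The groups did not overlap, but cKO replicate 1 stood far above the other cKO libraries and cKO replicate 2 lay close to WT. The log2 difference was 0.49 ± 0.11 (limma adjusted p = 0.0232), a ratio of 1.40 with a 95% interval of 1.18 to 1.66. The call was lost without WT replicate 1 (adjusted p = 0.102), WT replicate 3 (0.0647) or cKO replicate 3 (0.0644) and under robust moderation (0.0671), all in limma. Over all 17 alternatives, edgeR and DESeq2 included, the adjusted p spanned 0.000193 to 0.536. The 0.536 came from the fit with a follicular marker score, described below.

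Tlr9, the receptor for CpG DNA, was the steadiest of the endosomal receptors. Its normalised reads were 3366, 3377 and 3459 in the WT libraries, whereas the cKO libraries had 3652, 3465 and 3691. The groups narrowly failed to overlap, by 3459 in the highest WT library against 3465 in the lowest cKO library. The log2 difference of 0.08 ± 0.05 did not pass (limma adjusted p = 0.328), and the 95% interval of the change ran from -2.04% to 14.5%.

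Unc93b1, the chaperone that carries the nucleic acid receptors to endosomes, was likewise at similar levels in both groups. The WT libraries had 19462, 21221 and 20676 normalised reads and the cKO libraries had 21982, 20058 and 20822, with overlap. The log2 difference was 0.03 ± 0.06 (limma adjusted p = 0.764), and the 95% interval of the ratio, 0.933 to 1.12, bounds the size of any difference in this highly expressed gene. The estimate fell to just below 0 in 3 of the 17 alternatives.

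Set against Tlr9 in the same library, both RNA sensors were higher in cKO. The ratio of Tlr3 to Tlr9 was 0.220, 0.234 and 0.266 in the WT libraries but 0.573, 0.417 and 0.579 in the cKO libraries. For Tlr7 to Tlr9 the ratios were 0.584, 0.653 and 0.652 in WT and 1, 0.730 and 0.788 in cKO, again without overlap. The log2 difference of Tlr3 thus exceeded that of Tlr9 by 1.11, and that of Tlr7 exceeded it by 0.40. Each gave p = 0.1 in a two-sided exact permutation test over libraries, which is the smallest p that 3 against 3 libraries allow, and 0.1 after adjustment over the 3 pairs of genes tested. This test therefore could not pass a threshold of 0.05 whatever the values. It was repeated with other pseudocounts and without each library, where it cannot go below 0.1 either. Without any single WT library, Tlr7 to Tlr9 gave an exact permutation p of 0.2, and the remaining repeats for both ratios gave 0.1. An exact sign-flip test with a replicate block is given in the closing section.

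**Figure D2:**
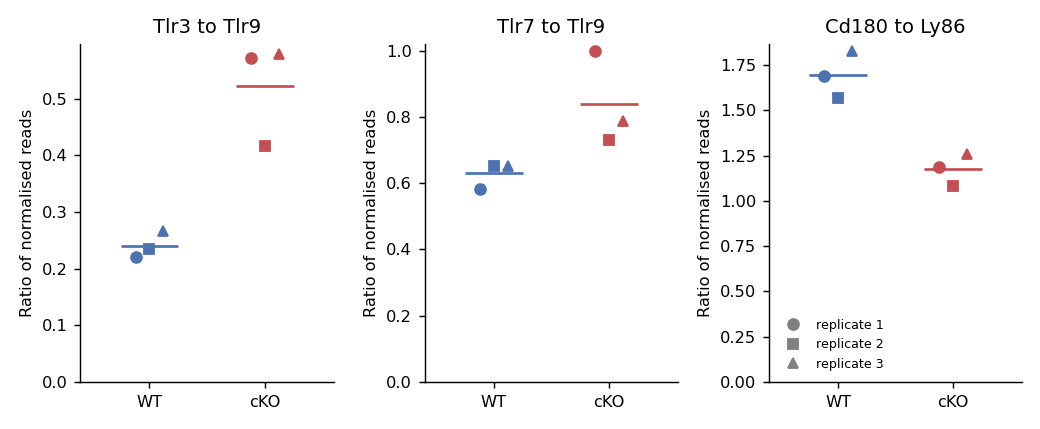
Ratio of normalised reads within each library for Tlr3 to Tlr9, Tlr7 to Tlr9 and Cd180 to Ly86, with a point per library, a marker shape per replicate number and a line at the mean of 3 libraries. The 3 cKO points lie above the WT points for both ratios to Tlr9 and below them for Cd180 to Ly86.

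At the level of RNA, the receptor gene of the CD180 complex changed and the gene of its partner did not detectably. Cd180 had 6726, 7141 and 8418 normalised reads in the WT libraries, against 5793, 4732 and 6022 in the cKO libraries. All cKO libraries lay below all WT libraries, with the highest value in WT replicate 3 and the lowest in cKO replicate 2. The log2 difference was -0.43 ± 0.10 (limma adjusted p = 0.0233), a ratio of 0.742 with a 95% interval of 0.637 to 0.863. Cd180 kept its call in 16 of 17 alternatives, and without WT replicate 3 gave -0.34 with an adjusted p of 0.094, in a range of 0.000348 to 0.094. In GENCODE M21, 182 of its 4509 exon bases overlap Mast4 on the other strand, which was not called (log2 difference -0.09, limma adjusted p = 0.344).

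Ly86, which encodes the MD-1 protein needed for CD180 at the surface, did not follow. The WT libraries had 3990, 4558 and 4612 normalised reads and the cKO libraries 4884, 4392 and 4774, with overlap. The log2 difference of 0.10 ± 0.07 did not pass (limma adjusted p = 0.402), and the 95% interval of the change ran from -3.69% to 18.6%. Within libraries the ratio of Cd180 to Ly86 was 1.69, 1.57 and 1.83 for WT but 1.19, 1.08 and 1.26 for cKO, without overlap. The log2 differences of the 2 genes were thus apart by -0.53 (two-sided exact permutation p = 0.1, the smallest possible here, and 0.1 adjusted over the 3 pairs).

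None of the 4 surface receptor genes was called, beside 10.1% of all genes tested, and 4 genes are too few to compare with that share. Tlr1, the partner of Tlr2 for triacylated lipopeptides, was the most abundant of the 4 per kilobase. It had 5510, 5699 and 5927 normalised reads in the WT libraries against 6211, 5943 and 6309 in the cKO libraries. Its groups narrowly failed to overlap, and the log2 difference of 0.11 ± 0.05 gave a limma adjusted p of 0.218. Tlr6, the alternative partner of Tlr2, had 245, 248 and 280 normalised reads in the WT libraries against 296, 328 and 303 for cKO, also without overlap. Its log2 difference of 0.26 ± 0.10 was among those under 0.05 before adjustment and did not pass after it (limma adjusted p = 0.127). Tlr1 and Tlr6 are neighbouring paralogues that share sequence: 15.3% of the 50-base stretches of the longest Tlr1 transcript also occur in Tlr6, and 12.6% of those of Tlr6 occur in other genes, nearly all in Tlr1, so the assignment of reads between them is uncertain, more so for the low Tlr6.

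Tlr2, which all lipopeptide recognition by this family requires, was scarce. There were 206, 167 and 182 normalised reads in the WT libraries against 222, 200 and 248 for cKO, with overlap (log2 difference 0.27 ± 0.13, limma adjusted p = 0.210). Tlr4, the lipopolysaccharide receptor, had 477, 584 and 546 normalised reads in the WT libraries against 533, 394 and 546 for cKO. Its groups overlapped, and the log2 difference of -0.13 ± 0.13 did not pass (limma adjusted p = 0.540). Without cKO replicate 2 the Tlr4 estimate turned to 0.02. Ly96, which encodes the MD-2 partner of Tlr4, had 160, 167 and 165 normalised reads in the WT libraries against 226, 137 and 242 for cKO (log2 difference 0.25 ± 0.19, adjusted p = 0.437), and the cKO libraries were the more scattered.

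**Figure D3:**
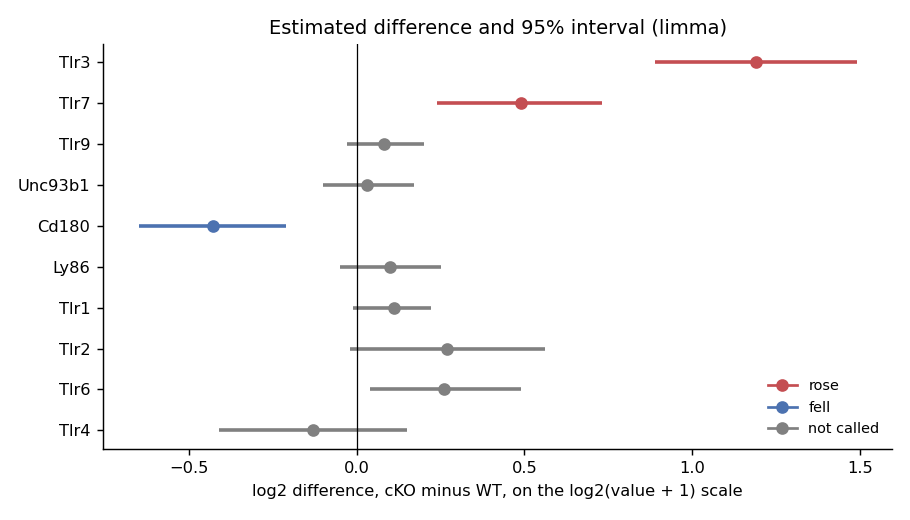
Log2 difference between cKO and WT for the 10 genes with its 95% interval from limma, on the log2(value + 1) scale, red where the gene rose, blue where it fell and grey where it did not pass. Tlr3 at 1.19 stands apart, Tlr7 at 0.49 and Cd180 at -0.43 lie on either side of 0, and the interval of Tlr6 excludes 0 although the gene was not called after adjustment.

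Most of the 10 genes had their lowest value of a genotype in the same library, although the order of the other libraries varied. WT replicate 1 held the lowest WT value for 9 of them, all but Tlr2, and cKO replicate 2 held the lowest cKO value for 9, all but Tlr6. Over all genes tested, WT replicate 1 was lowest among WT for 35.2% and cKO replicate 2 among cKO for 34.7%. Markers of B cell subsets also set cKO replicate 2 apart from the other cKO libraries, in opposite directions for the 2 subsets. The summed level of the 12 marginal zone genes was 144094 to 155432 normalised reads in WT and 147956 to 179444 in cKO, with cKO replicate 2 the lowest cKO library, and 6 of the 12 rose and 0 fell. The summed level of 7 genes typical of follicular B cells, the major B cell population of the spleen, was 40561 to 44993 in WT and 31607 to 40429 in cKO, with cKO replicate 2 the highest cKO library, and 5 fell and 0 rose. Both lists were drawn up with earlier results of these data known, so they are no independent evidence of direction.

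A follicular score, the centred mean log2 level of those 7 genes, came to 0.153, 0.266 and 0.197 for the WT libraries and to -0.402, 0.121 and -0.336 for the cKO libraries. It separates the genotypes by itself, so a fit that holds it constant also removes part of the genotype difference. Within a genotype the score varied mainly through cKO replicate 2, so the estimates of such a fit rest largely on that library. With the score as a covariate Tlr3 was called higher in cKO (0.76 ± 0.14, limma adjusted p = 0.0245) and Cd180 lower (-0.67 ± 0.12, 0.0269). Tlr7 gave 0.19 ± 0.13 in that fit and lost its call (limma adjusted p = 0.536). In bulk RNA, fewer cells of a type and less RNA per cell cannot be told apart, and the part of subset composition in these differences was not tested further.

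**Figure D4:**
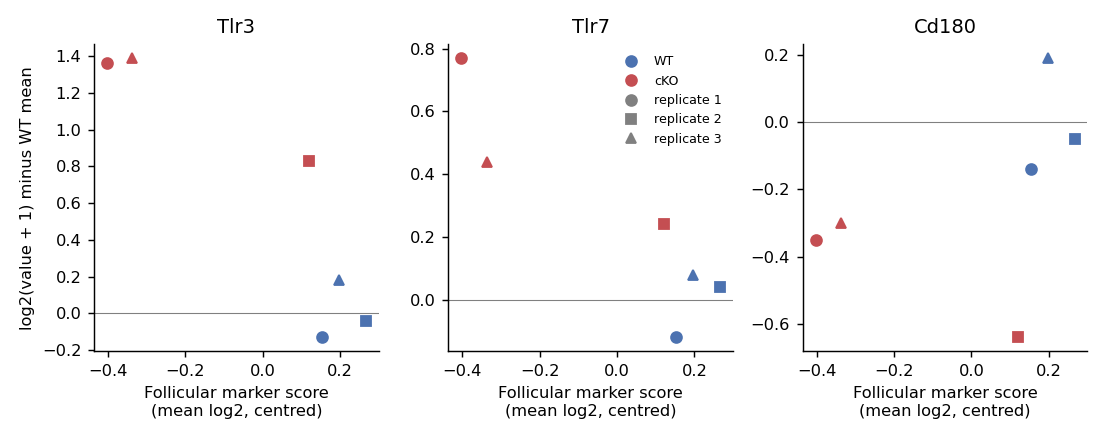
Log2(value + 1) of Tlr3, Tlr7 and Cd180 in each library, less the WT mean, against the follicular marker score of that library, WT in blue and cKO in red with a marker shape per replicate number. In cKO replicate 2, whose score of 0.121 is the nearest to WT, Tlr3 and Tlr7 are the nearest to WT of the cKO libraries and Cd180 is the farthest.

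Markers of other cells were read beside these results. All 17 macrophage and monocyte markers were among the genes tested, led by Lyz2, Vcam1 and Adgre1, and none was called. Their summed level was 2262 to 3772 normalised reads in WT and 1821 to 3490 in cKO, compared with 173895 to 185844 and 177839 to 182307 for the 7 B cell markers, among which none was called. WT replicate 2 and cKO replicate 1 were highest in the macrophage sum, in the sum of 4 neutrophil markers (183 and 198 normalised reads, against 40 to 91 in the other libraries) and in that of 5 red cell markers. Tlr2, Tlr4 and Ly96 are also expressed by macrophages. Of the 10 genes, Tlr7, Ly86 and Unc93b1 had their highest cKO value in cKO replicate 1. Only Unc93b1 of these 3 had its highest WT value in WT replicate 2. Tlr4 also had its highest WT value there, as did Ly96 by a narrow margin, and both had their highest cKO value in cKO replicate 3. The share of all genes tested with such a pattern is not given here. The part of other cells in the values of Ly96 and of the 10 genes, Tlr7 included, was not tested. Among dendritic cell markers 6 of 9 were tested and 1 rose, Zbtb46, while Flt3 and Itgax were not called. For T cells 3 of 8 markers were tested, for NK cells 4 of 6 and for platelets 2 of 4, and none was called. Of 6 plasma cell markers tested, Irf4, which activated B cells also express, fell.

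Of the 5 receptor genes of the family outside the 10, Tlr8, Tlr12 and Tlr13 were among the genes tested and Tlr5 and Tlr11 were not. Tlr12 had 61.5, 65.3 and 71.4 normalised reads in the WT libraries against 54.4, 103 and 79.5 for cKO, with overlap, and was not called. Tlr8 and Tlr13 were named after their values were seen. Tlr8, an endosomal receptor in the same branch as Tlr7, had 9.88, 14.8 and 10.8 normalised reads in the WT libraries against 27.6, 5.69 and 4.13 for cKO. Tlr13, a sensor of bacterial ribosomal RNA, had 14.3, 24.2 and 11.7 in WT and 32.1, 20.9 and 16.5 in cKO. Neither was called, and the highest value of each was in cKO replicate 1.

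The other genes of the pathway were read from 6 lists with 88 distinct genes, of which 83 were tested. Of these 4 rose and 8 fell, together 14.5%, beside 10.1% of all genes tested, and the median log2 difference was 0.01. The count of called pathway genes was 3 without WT replicate 1, 3 without WT replicate 3 and 5 without either cKO replicate 1 or cKO replicate 3, compared with 12 in all 6 libraries. Only Irf7, Rel and Tnfaip3 among the 12 passed in each fit that left out a library.

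In the list of coreceptors, chaperones and ligand handling, 2 of 21 genes tested rose and 1 fell (14.3% called, beside 10.1% of all genes tested). Cnpy3, which encodes a chaperone that many Toll-like receptors need to leave the endoplasmic reticulum, had 2922, 3055 and 3118 normalised reads in the WT libraries against 3591, 3553 and 3481 for cKO (log2 difference 0.22 ± 0.05, limma adjusted p = 0.0228). Sdcbp, which encodes syntenin-1, a protein that binds Unc93b1 and restrains Tlr7, rose from 2303 ± 132 to 2779 ± 65.9 (0.27 ± 0.06). Slc15a4, an endolysosomal transporter required for Tlr7 and Tlr9 responses, fell from 2688 ± 79.5 to 2289 ± 70.3 (-0.23 ± 0.05). The groups of these genes did not overlap. Cnpy3 and Slc15a4 each lost the call in 4 of the 6 fits that left out a library (WT replicates 1 and 3, cKO replicates 1 and 3) and Sdcbp in 3 (WT replicates 1 and 3, cKO replicate 3), with limma adjusted p up to 0.0767, 0.0819 and 0.0745. Hsp90b1, the endoplasmic reticulum chaperone gp96 and the gene of the list with the most reads, was not called (log2 difference 0.10 ± 0.09).

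Among adaptors and receptor-proximal kinases, 1 of 12 genes rose and 0 fell (8.33% called, below the 10.1% of all genes tested). That gene was Ticam1, which encodes TRIF, the adaptor of Tlr3. The WT libraries had 1029, 970 and 856 normalised reads and the cKO libraries 1338, 1137 and 1109, without overlap (log2 difference 0.33 ± 0.09, limma adjusted p = 0.0441). It lost its call in 5 of the 6 fits that left out a library, all but that without cKO replicate 2, with limma adjusted p up to 0.157 (without WT replicate 3). Myd88, the adaptor of the Toll-like receptors other than Tlr3, was at 990 ± 88.5 in WT, 1046 ± 28 in cKO and was not called (0.08 ± 0.08, adjusted p = 0.524). Pik3ap1, the adaptor BCAP that links these receptors to PI3K and the gene of the list with the most reads, was not called either.

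Downstream, 1 of 18 kinase genes fell and 0 rose (5.56% called, below the 10.1% of all genes tested). It was Ikbkb, a catalytic subunit of the IκB kinase, which went from 7598 ± 510 normalised reads to 6451 ± 267 (log2 difference -0.23 ± 0.06, limma adjusted p = 0.0366). This call was lost in 4 of the 6 fits that left out a library (WT replicates 1 and 3, cKO replicates 1 and 3), with limma adjusted p up to 0.127 (without cKO replicate 3). Among 15 transcription factors and their inhibitors, 1 rose and 3 fell (26.7% called, beside the same 10.1%). Irf7, the factor through which Tlr7 and Tlr9 induce interferon, was the riser, with 656, 569 and 631 in WT against 1281, 1349 and 992 in cKO (log2 difference 0.95 ± 0.11, limma adjusted p = 0.000748). The NF-κB subunit gene Rel (-0.44 ± 0.08) and the atypical IκB genes Nfkbiz (-0.65 ± 0.12) and Nfkbid (-0.63 ± 0.15) fell, and Irf8, with the most reads of the list, was not called. Nfkbiz lost its call without WT replicate 1 or WT replicate 3, and Nfkbid without either of these or cKO replicate 1, with limma adjusted p up to 0.0599 and 0.101.

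Negative regulators gave 3 falls and 0 increases among 14 genes (21.4% called, beside 10.1% of all genes tested). Tnfaip3, the ubiquitin-editing enzyme A20, had 2755, 2371 and 2481 normalised reads in the WT libraries against 1771, 1700 and 1942 for cKO (log2 difference -0.49 ± 0.07, limma adjusted p = 0.0034). Zfp36, the gene of the list with the most reads, encodes an mRNA decay factor and fell by 0.41 on the log2 scale. Otulin, which removes linear ubiquitin chains, fell by 0.25. Zfp36 lost its call in 4 of the 6 fits that left out a library (WT replicates 1 and 3, cKO replicates 1 and 3) and Otulin in all 6, with the highest limma adjusted p, 0.121 and 0.166, without WT replicate 3.

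**Figure D5:**
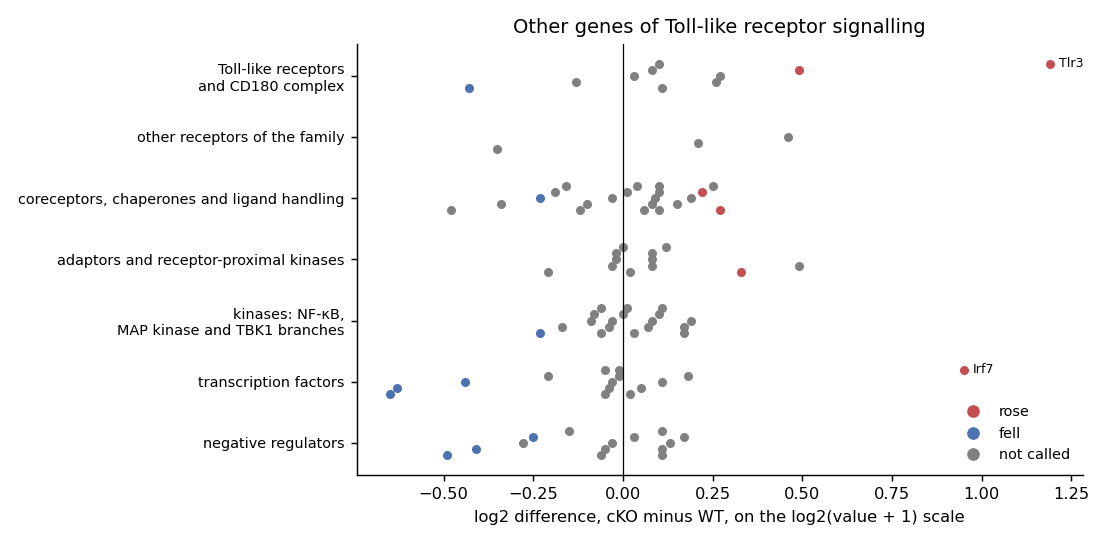
Log2 difference between cKO and WT, on the log2(value + 1) scale, for each gene tested in the 6 pathway lists and, in the top row, the 10 genes of this family, red where a gene rose, blue where it fell and grey where it was not called. Most points lie within 0.25 of 0, and Tlr3 at 1.19 and Irf7 at 0.95 lie farthest to the right.

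Genes of like pattern were found for each of the 3 called genes by the Euclidean distance between log2 values centred on their mean over the 6 libraries, among 11807 other named genes. The nearest to Tlr3 were Asb2, a ubiquitin ligase subunit, at a distance of 0.237, Azin2 at 0.243 and Cd59a, a complement inhibitor, at 0.270. Their log2 differences were 1.29, 1.03 and 1.09, and Asb2 is also among the marginal zone genes summed above. The nearest to Tlr7 were Lzts3 at 0.153, Zcchc18 at 0.162 and Tspan31 at 0.163, with differences between 0.48 and 0.52. The nearest to Cd180 were Gpr180 at 0.0523, Otulinl at 0.0788 and Gpr183, an oxysterol receptor that positions B cells, at 0.138, with differences between -0.43 and -0.40. The distances rest on the same 6 libraries in 2 groups and are given as a description.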

How the data were processed

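The authors deposited a normalised signal for each gene in which whole reads can be recovered: within 0.02 of a read, 100.0% of the values in every library were whole multiples of the value of 1 read. Per the submitters' processing notes, bcl2fastq 2.17, Trimmomatic 0.36 and STAR 2.5.2b were used with the build mm9. The counting tool, annotation, strand setting and normalization method are not named in the labels or file headers. GENCODE M21 named 14808 of the 14864 identifiers.

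Genes with a mean of at least 10 over the 6 libraries (14855) were tested with limma 3.58.1 in R 4.3.3 on log2(value + 1), with an intensity trend in eBayes, two-sided tests and no term besides genotype. The procedure was also run on simulated counts with independent libraries and the same dispersion for every gene. Such counts do not test the calls made in these libraries. Alternatives covered pseudocounts of 0.5 and 5, other filters and scalings, edgeR 4.0.16 and DESeq2 1.42.0 on recovered reads, robust moderation, a follicular score, a replicate block and leaving out each library. edgeR called 1473 and DESeq2 1630 genes on the recovered reads.

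The genes, the marker and pathway lists and the tests were chosen with earlier results of these data known. Named were the 10 genes, from each pathway list up to 4 called genes with the smallest adjusted p and the most abundant gene, from each marker list up to 3 of the most abundant genes, Ly96 and Myd88, and 3 genes of like pattern for each called gene. Promoter coordinates are those of RefSeq on GRCm38.p6, not of the authors' alignment.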

Additional observations from a re-analysis of the deposited data

How the results depend on the processing

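Over 17 alternatives to the reported fit, the direction and side of the threshold stood for 160 of 170 values of the 10 genes. Most of these values belong to the 7 genes that were not called, so the count says little about the 3 calls. Cd180 lost its call in 1 alternative and Tlr7 in 5, as given with their values above. Estimates close to 0 changed sign: Tlr4 ranged from -0.218 to 0.0158 over the fits that left out 1 library, above 0 only without cKO replicate 2, and Unc93b1 from -0.000525 (without WT replicate 1) to 0.0658, with -0.000224 without cKO replicate 1. With the follicular score Unc93b1 gave -0.0289. Leaving out 1 library at a time gave 1 to 3 called among the 10 genes (3 in all 6 libraries), 497 to 1730 over all genes (1494) and 3 to 13 among the pathway genes (12). With the follicular score, 190 genes and 3 pathway genes were called. The remaining counts stayed within 1.5 times. The 3 differences between pairs of genes kept their direction under the 9 alternatives run for them (both pseudocounts, the replicate block and each left-out library), which the separation of the groups fixes in advance.

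The libraries of both groups share the numbers 1 to 3, and the labels give no pairing. Deviations of same-numbered libraries had correlations of -0.0745, -0.02 and 0.147 across genes, within the range of differently numbered libraries (-0.207 to 0.196). These values show no pairing but cannot exclude one, and the main fit uses the numbers only as names. With the number as a replicate block, the same 3 of the 10 genes were called, with 1551 over all genes and 12 pathway genes. The differences between pairs of genes were then 1.11, 0.404 and -0.527, each with an exact sign-flip p of 0.25, the smallest 3 pairs allow. The depth sets the precision of the scarcest genes: each read was worth between 0.891 and 1.1 normalised reads, and Tlr8 rested on 4 to 31 reads per library.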
